A study of Homo sapiens with 6 samples.

Results

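The genes described here belong to families or complexes known to write, erase or read out chromatin marks, or to move nucleosomes. They were chosen by symbol: every row of the count files that starts with Kdm, Kmt, Hdac, Setd or Smarc, every Sirt, Dnmt, Tet or Ezh gene with a number and at most 1 further letter, and Eed and Suz12. This gave 79 genes of the 38986 symbols in the files. Dnmt3aos, an RNA named after its neighbour Dnmt3a, has 2 further letters and was left out. The rule itself uses no measured value. It also takes in genes with other targets or none, such as Setd3, Hdac6, the mitochondrial sirtuins and the pseudogene Smarca5-ps. RNA-seq was made from 2 groups of 3 libraries. The first group is labelled as 293T with STAT6 overexpression and the other as 293T Mock of wild-type genotype, and per the design text both were mCherry-positive. 293T is a human embryonic kidney line transformed with adenovirus DNA and expressing SV40 large T antigen, and STAT6 is the transcription factor downstream of interleukin 4 and interleukin 13. The question put by the submitters concerns STAT6 and mitochondrial gene expression; the chromatin genes are a separate reading of the same libraries.

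DNA in the nucleus is wound on histones, and chemical marks on histone tails and on cytosine help to set which genes are read. Lysine methyltransferases of the KMT and SETD families place methyl groups, and KDM enzymes take them off. Deacetylases of the HDAC family and the NAD-dependent sirtuins remove acetyl groups. DNMT enzymes methylate cytosine and TET enzymes oxidise the methyl group. Polycomb repressive complex 2 (PRC2), built on Ezh1 or Ezh2 with Eed and Suz12, methylates lysine 27 of histone H3. SWI/SNF complexes, called BAF in mammals and built largely from SMARC proteins, slide or evict nucleosomes with energy from ATP. In pigment cells, BAF complexes with Smarca4 are known to work with the melanocyte factor Mitf.

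Some facts of the libraries bear on every value below. The STAT6-labelled libraries held 19894773 to 23648304 counts and the Mock-labelled ones 22368757 to 29802693. The symbols are those of mouse genes although the labels name a human line, so no coordinates or sequences are given. Stat6 stood at 32.1 to 35.1 CPM (counts scaled to a common library total, adjusted with the TMM factors of edgeR) in the STAT6-labelled libraries, against 92.8 to 95.5 CPM in the Mock-labelled ones, which goes against the label. All directions below follow the labels. A list of 7 pigment cell markers summed to 16705 to 16841 CPM in the STAT6-labelled libraries and to 14404 to 14750 CPM in the Mock-labelled ones. Tyrp1, Dct, Mitf and Sox10 were higher, Tyr (29.1 ± 0.758 CPM against 303 ± 5.29 CPM) and Pmel were lower, and Mlana did not pass. Of 6 embryonic kidney markers, only Lhx1 reached 1 CPM in any library. Pax8 and Six2 had 0 counts throughout, and the list summed to 3.14 to 3.54 CPM in the STAT6-labelled libraries and to 0 in the Mock-labelled ones. Of 6 leukocyte and 4 endothelial markers none reached 1 CPM. Of 5 fibroblast markers 3 did, and the sum was 78.5 to 84.9 CPM in the STAT6-labelled libraries against 18.7 to 20.7 CPM in the Mock-labelled ones. Col1a1 was higher (78.7 ± 3.14 CPM against 4.85 ± 0.421 CPM), Col1a2 was lower (2.14 ± 0.141 CPM against 13.4 ± 1.46 CPM) and Pdgfra did not pass. Among 4 keratinocyte markers, Krt14 alone reached 1 CPM, and the sum was 3.37 to 4.85 CPM against 1.01 to 2.63 CPM. The part of these markers in the results was not tested. In bulk RNA, fewer cells of a type and less RNA per cell cannot be told apart.

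Of the 79 genes, 75 passed the filter on low counts and were tested. The filter kept out Kdm4d (14 counts in all STAT6-labelled libraries together, 5 in all Mock-labelled ones), Dnmt3l (11 and 0 counts), Smarca1 (1 and 6 counts) and Kdm5d. Of the 75 tested, 54 (72%) passed an adjusted p of 0.05, against 72.6% of all 12938 genes tested. The split of directions was less even than in the whole table. Of these genes, 36 were lower in the STAT6-labelled libraries (48%, where the share over all genes was 36.8%) and 18 were higher (24%, where it was 35.8%). The groups did not overlap in 55 of the 75 genes (73.3%), against 74.6% of all genes tested.

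Most changes were small. The median absolute log2 fold change was 0.27 over the 75 genes and 0.35 over all genes tested, and the median signed value was -0.12, against -0.00 over all genes. Of the 54 called genes, 16 moved by less than 0.25 on the log2 scale, 20 by 0.25 to 0.5, 14 by 0.5 to 1 and 4 by at least 1. At least 2-fold changes therefore numbered 2 higher (2.67%) and 2 lower (2.67%), where the whole table had 10.6% and 4.96%. A test for a change beyond 1.5-fold (glmTreat of edgeR) called 9 of the 75 genes (12%), against 21.5% of all genes. The 6 higher ones were Hdac7, Kdm7a, Smarcd2, Kdm5b, Sirt1 and Smarca2 (8%, against 14% of all genes), and the 3 lower ones were Suz12, Dnmt3b and Kmt5a (4%, against 7.51%). With library totals in place of TMM scaling, the lower ones numbered 8, the additions being Kmt2c, Setd1a, Setd1b, Kdm1b and Kdm8. The share over all genes was not taken at that setting. Summed over all 79 genes, the level was 5553 to 5617 CPM in the STAT6-labelled libraries and 6050 to 6400 CPM in the Mock-labelled ones.

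**Figure D1:**
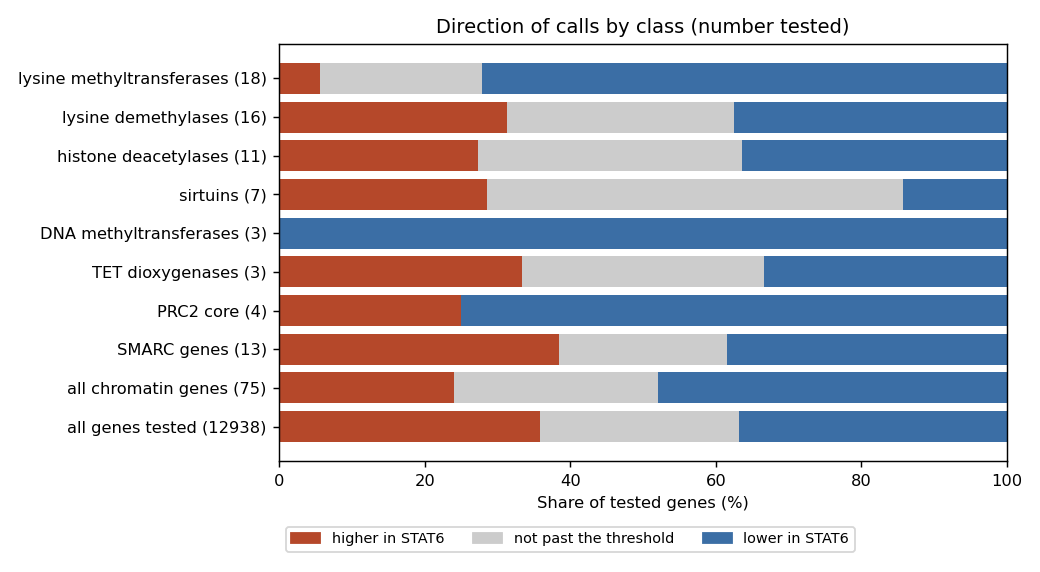
Share of tested genes in each class (horizontal axis, percent) that were higher in the STAT6-labelled libraries (left segment), not past the threshold (middle) or lower (right), with the number tested beside each class. Of the lysine methyltransferases 13 of 18 were lower and of the DNA methyltransferases all 3 tested, while the whole table (bottom bar) was split 35.8% higher and 36.8% lower.

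**Figure D2:**
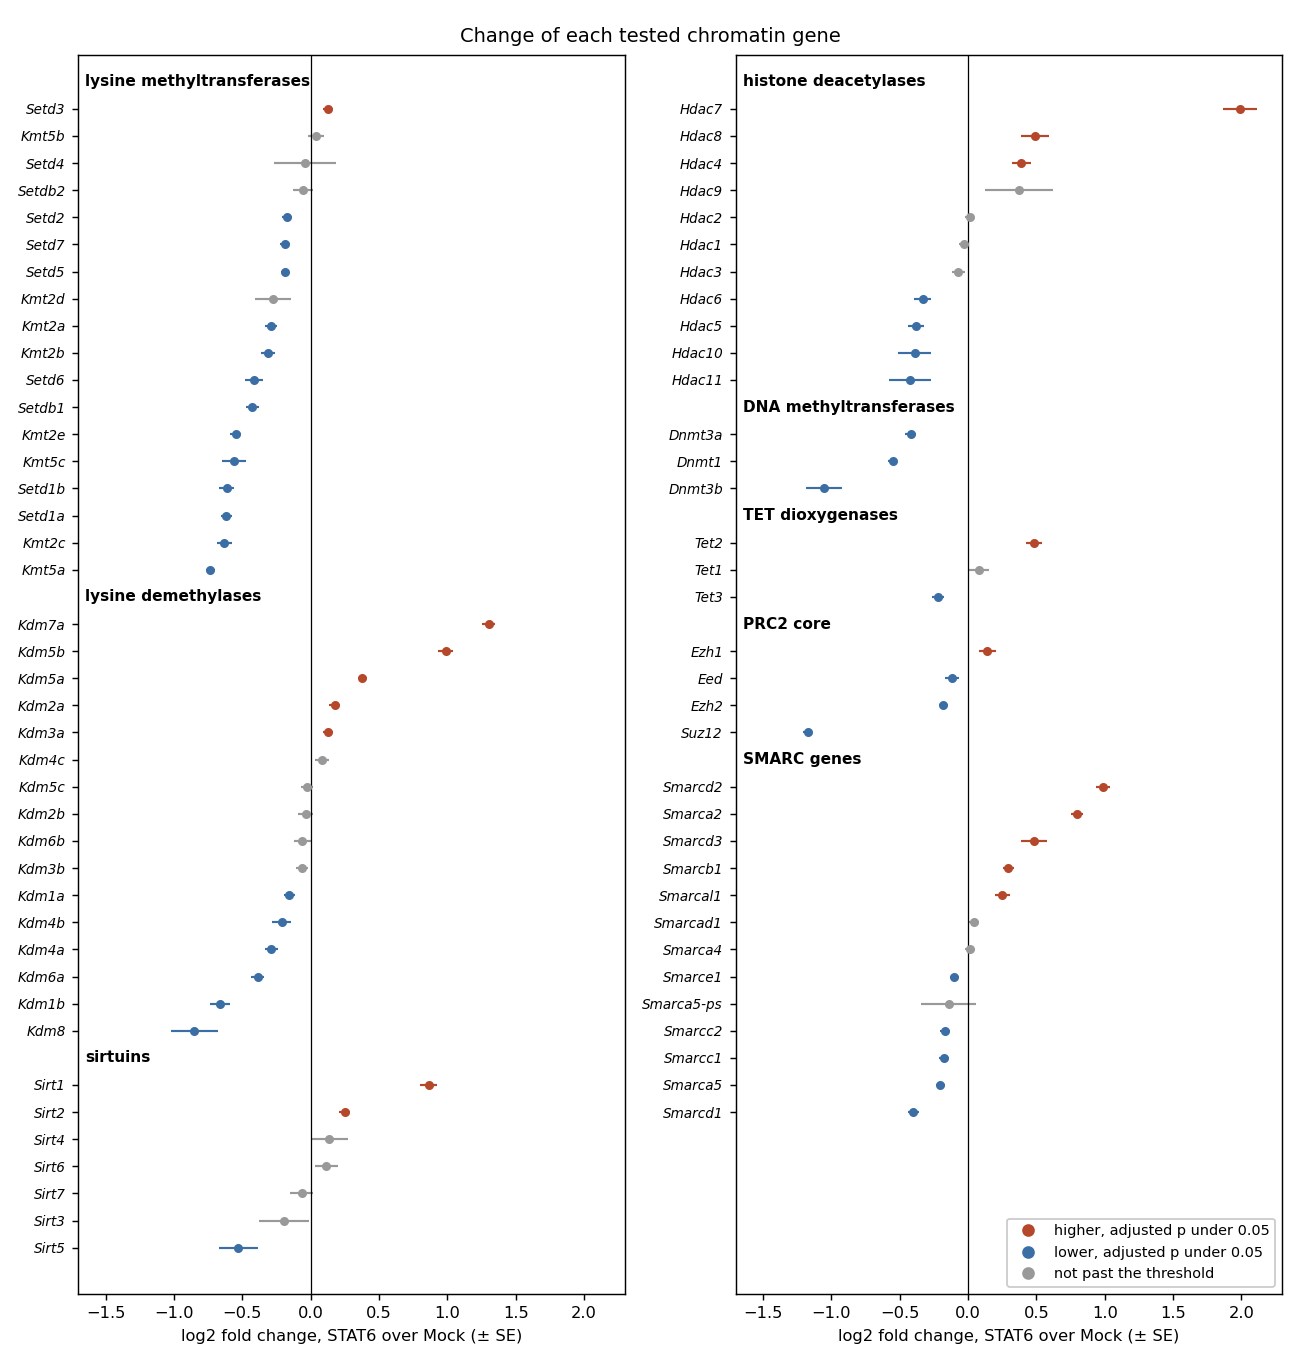
Log2 fold change of each of the 75 tested genes, STAT6-labelled libraries over the Mock-labelled ones, with its standard error, grouped by class and ordered within it. Hdac7 lies farthest to the right at 1.99 and Suz12 farthest to the left at -1.17; most others lie within 1 log2 unit of 0.

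Lysine methyltransferases were the class with the most lower genes. The class was set by the Kmt and Setd symbols, whatever the product's target. Of 18 genes, all of them tested, 13 fell, 1 rose and 4 did not pass, with a median log2 change of -0.30. The shares over all genes tested were 36.8% lower and 35.8% higher. Together they held 1533 to 1591 CPM in the STAT6-labelled libraries against 1931 to 2099 CPM in the Mock-labelled ones. Mock replicate 2 was the highest Mock library in 12 of the 18 (66.7%) and in 41 of all 75 genes tested (54.7%), where it was the highest in 35.1% of all genes. Without it, 14 genes of this class were lower and 1 was higher.

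Genes for the methylation of lysine 4 of histone H3 (H3K4), a mark of active promoters and enhancers, moved to one side. These are the catalytic subunits of COMPASS complexes, and 5 of the 6 fell. Of the whole class 13 of 18 were lower, and of all genes tested 36.8%. Setd1a, which makes bulk trimethylation at promoters, had 59.7, 59.1 and 59.7 CPM in the STAT6-labelled libraries, against 88.8, 94.1 and 90.9 CPM in the Mock-labelled ones. It fell by 0.62 log2 units (SE 0.04, adjusted p = 6.66e-16), with a wide gap between the groups. Its paralog Setd1b fell by the same amount, 0.62 (SE 0.05, adjusted p = 2.21e-12), with 28.5, 32.4 and 29.1 CPM against 45.7, 47.8 and 44.2 CPM.

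Kmt2c, which marks enhancers, had 68.2, 70.0 and 72.3 CPM in the STAT6-labelled libraries and 104, 120 and 102 CPM in the Mock-labelled ones, a log2 change of -0.63 (SE 0.05, adjusted p = 1.76e-08). Its paralog Kmt2d had 126, 135 and 142 CPM against 147, 191 and 149 CPM. The groups did not overlap for Kmt2d, but Mock replicate 2 stood well above the other Mock libraries, and the change of -0.27 (SE 0.13) did not pass (adjusted p = 0.132). Without that library it was -0.15 and passed (adjusted p = 2.88e-04), as it did with limma-voom (adjusted p = 0.00239). Kmt2a, the MLL gene that leukaemia translocations break, changed by -0.29 (SE 0.04, adjusted p = 5.46e-07) and Kmt2b by -0.31 (SE 0.05, adjusted p = 1.33e-06). Kmt2e is related in sequence but is not known as an active H3K4 methyltransferase. It changed by -0.55 (SE 0.04, adjusted p = 7.55e-14).

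Methylation of lysine 20 of histone H4 starts with Kmt5a, which places the first methyl group and is needed in cell division. Kmt5a had 176, 179 and 176 CPM in the STAT6-labelled libraries, against 280, 304 and 298 CPM in the Mock-labelled ones. It fell by 0.73 log2 units (SE 0.03, adjusted p = 2.27e-20), and no other gene of the class passed beyond 1.5-fold. The enzymes that add further methyl groups at this site differed from each other. Kmt5c fell by 0.56 (SE 0.09, adjusted p = 6.61e-07), to 8.80 ± 0.416 CPM against 13.0 ± 0.715 CPM (SD, n = 3 each). Kmt5b stood at 32.4 ± 3.11 CPM against 31.4 ± 0.266 CPM and did not pass (adjusted p = 0.544).

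The other genes of the class changed by less than Kmt5a, and 1 of them rose. Setd2, the enzyme of H3K36 trimethylation, changed by -0.18 (SE 0.04, adjusted p = 8.76e-05). Setdb1, which methylates H3K9 and silences transposons, changed by -0.43 (SE 0.05, adjusted p = 4.04e-10), while Setdb2 did not pass (-0.06, adjusted p = 0.486). Setd6, known to methylate the NF-kB subunit RelA, changed by -0.41 (SE 0.07, adjusted p = 7.77e-07). Setd5 and Setd7 changed by -0.19 each (adjusted p = 2.73e-06 and 9.78e-05). Setd3, an actin histidine methyltransferase, rose by 0.13 (SE 0.04, adjusted p = 0.00241), and with library totals alone it no longer passed (0.05, adjusted p = 0.194). Setd4 stood at 1.75 ± 0.389 CPM against 1.77 ± 0.351 CPM and did not pass (adjusted p = 0.881).

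Lysine demethylases went in both directions. Of 18 genes 16 were tested, and 5 rose, 6 fell and 5 did not pass, with a median log2 change of -0.05. Over all genes tested, 35.8% rose and 36.8% fell. Kdm7a, a PHF2/PHF8-type JmjC enzyme that removes methyl groups from H3K9 and H3K27, had the largest rise of the class. It had 95.2, 99.9 and 97.2 CPM in the STAT6-labelled libraries and 39.0, 42.9 and 36.9 CPM in the Mock-labelled ones. Every library of the first group lay far above every one of the other. The log2 change was 1.30 (SE 0.05, adjusted p = 2.79e-23).

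The KDM5 enzymes erase H3K4 methylation, the mark that the COMPASS genes place. Kdm5b, known in melanoma for marking slow-cycling cells, had 42.7, 43.9 and 43.2 CPM in the STAT6-labelled libraries, against 22.3, 21.9 and 21.3 CPM in the Mock-labelled ones. It rose by 0.99 log2 units (SE 0.05, adjusted p = 3.95e-18), just under 2-fold. Kdm5a rose by 0.38 (SE 0.03, adjusted p = 3.75e-12), at 218 ± 3.78 CPM against 168 ± 6.69 CPM. Kdm5c did not pass (-0.03, adjusted p = 0.596), except as lower with library totals alone (-0.10, adjusted p = 0.0449). The other H3K4 demethylases, the flavin-dependent Kdm1a and Kdm1b, fell, by 0.16 (SE 0.04, adjusted p = 6.69e-04) and by 0.66 (SE 0.07, adjusted p = 2.88e-10). Of these erasers 2 were thus higher, 2 lower and 1 did not pass, or 2 higher and 3 lower with library totals alone.

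Among the remaining demethylases, Kdm6a, which removes methyl groups from H3K27, fell to 41.8 ± 1.04 CPM against 54.7 ± 0.947 CPM (log2 change -0.39, SE 0.05, adjusted p = 2.36e-09). Kdm6b, of the same activity, did not pass (-0.06, adjusted p = 0.383), except as lower with library totals alone (-0.14, adjusted p = 0.0474). Of the H3K9 and H3K36 demethylases of the KDM4 family, Kdm4a changed by -0.29 (adjusted p = 1.69e-06) and Kdm4b by -0.21 (adjusted p = 0.00782, or 0.0531 without STAT6 replicate 3). Kdm4c did not pass (0.09, adjusted p = 0.142), except without Mock replicate 1 (0.13, adjusted p = 0.0329). Kdm2a (0.18, adjusted p = 8.53e-05) and the H3K9 demethylase Kdm3a (0.12, adjusted p = 0.00291) rose slightly, the second only to 0.05 (adjusted p = 0.222) with library totals alone. Their paralogs Kdm2b and Kdm3b did not pass, at -0.04 and -0.06 (adjusted p = 0.537 and 0.169), although Kdm3b passed as lower with library totals alone (-0.14, adjusted p = 0.00343). Kdm8 fell by 0.85 (SE 0.17, adjusted p = 3.45e-05) at a low level, with 2.36 ± 0.546 CPM against 4.28 ± 0.295 CPM.

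Of the class I deacetylases, Hdac1, Hdac2 and Hdac3, the catalytic subunits of the NuRD, Sin3, CoREST and NCoR corepressors, did not pass, and Hdac8 rose. Hdac1 had 122, 118 and 115 CPM in the STAT6-labelled libraries and 124, 117 and 122 CPM in the Mock-labelled ones, so the groups overlapped. Its log2 change was -0.03 (SE 0.04, adjusted p = 0.464). Those of Hdac2 (0.01, SE 0.03, adjusted p = 0.745) and Hdac3 (-0.07, SE 0.05, adjusted p = 0.168) did not pass either; the value of Hdac2 turned to -0.0618 with library totals alone. With library totals alone, Hdac1 (-0.10, adjusted p = 0.0129) and Hdac3 (-0.15, adjusted p = 0.00661) passed as lower, and so did Hdac3 without Mock replicate 2 (-0.11, adjusted p = 0.0311). Hdac8 rose by 0.49 (SE 0.10, adjusted p = 6.65e-05), at 9.41 ± 0.861 CPM against 6.72 ± 0.183 CPM.

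Class IIa deacetylases shuttle between nucleus and cytoplasm and bind MEF2 factors, and their members did not share a direction. Hdac7 had 11.3, 10.2 and 10.4 CPM in the STAT6-labelled libraries against 3.04, 2.67 and 2.39 CPM in the Mock-labelled ones. This was a 3.97-fold rise, the largest of the 75 genes (log2 change 1.99, SE 0.12, adjusted p = 2.32e-16), with no overlap. Hdac4 rose by 0.39 (SE 0.07, adjusted p = 4.74e-05), whereas Hdac5 fell by 0.38 (SE 0.06, adjusted p = 2.42e-07). Hdac9, near 1 CPM, did not pass (0.37, SE 0.25, adjusted p = 0.177). In class IIb, the tubulin deacetylase Hdac6 (-0.33, adjusted p = 1.71e-05) and Hdac10 (-0.39, adjusted p = 0.00497) were lower. Hdac11, the only class IV enzyme, was lower (log2 change -0.42, SE 0.16, adjusted p = 0.0148), a call lost with DESeq2 (adjusted p = 0.0503), without STAT6 replicate 2 (0.0813) or Mock replicate 3 (0.0896). Summed over the 11 deacetylases, the level was 501 to 508 CPM in the STAT6-labelled libraries and 503 to 505 CPM in the Mock-labelled ones.

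Of the 7 sirtuins 2 rose, 1 fell and 4 did not pass, where 35.8% of all genes tested rose and 36.8% fell. Sirt1, the nuclear enzyme that deacetylates histones, p53 and PGC-1alpha, had 41.5, 38.8 and 38.4 CPM in the STAT6-labelled libraries, against 21.6, 24.1 and 20.02 CPM in the Mock-labelled ones. It rose by 0.86 log2 units (SE 0.06, adjusted p = 1.03e-14). The other nuclear sirtuins, Sirt6 and Sirt7, did not pass (0.12 and -0.06, adjusted p = 0.230 and 0.497). Sirt2, which is mostly cytosolic and acts on tubulin, rose by 0.25 (SE 0.04, adjusted p = 1.15e-06). Of the mitochondrial sirtuins, Sirt5, which removes succinyl and malonyl groups, fell to 3.85 ± 0.664 CPM against 5.57 ± 0.173 CPM (log2 change -0.53, SE 0.14, adjusted p = 0.00120). Sirt3 and Sirt4 did not pass, at -0.19 and 0.14 (adjusted p = 0.341 and 0.371).

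All 3 tested DNA methyltransferases fell, where 36.8% of all genes tested were lower. Dnmt3l, with 11 counts in the STAT6-labelled libraries together and 0 in the Mock-labelled ones, was not tested. Dnmt1, which copies methylation onto new strands at replication, had 197, 191 and 184 CPM in the STAT6-labelled libraries and 277, 286 and 274 CPM in the Mock-labelled ones (log2 change -0.55, SE 0.03, adjusted p = 5.76e-17). Dnmt3a, a de novo enzyme, stood at 56.2 ± 2.48 CPM against 75.2 ± 1.70 CPM (-0.42, SE 0.04, adjusted p = 8.51e-11). The other de novo enzyme, Dnmt3b, was low in both groups, at 3.37, 3.50 and 3.19 CPM against 6.77, 6.72 and 7.39 CPM. It fell by 1.06 (SE 0.13, adjusted p = 7.69e-09), more than its relatives, and no library of one group reached the other.

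On the removal side, TET enzymes did not share a direction. Tet2 rose by 0.48 (SE 0.06, adjusted p = 1.91e-07), with 51.1, 51.3 and 50.2 CPM in the STAT6-labelled libraries and 33.7, 41.4 and 34.3 CPM in the Mock-labelled ones. Tet3 fell by 0.22 (SE 0.04, adjusted p = 3.12e-05). Tet1 did not pass (0.08, SE 0.07, adjusted p = 0.322). The sum of the TET genes overlapped between groups, 135 to 139 CPM against 124 to 144 CPM.

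Of the PRC2 core, Suz12 stood far from its partners. Suz12, the scaffold subunit, had 122, 124 and 116 CPM in the STAT6-labelled libraries, against 277, 279 and 263 CPM in the Mock-labelled ones. It was 2.26-fold lower (log2 change -1.17, SE 0.03, adjusted p = 6.19e-26), the largest fall of the 75 genes. The catalytic subunit Ezh2 changed far less, with 192, 196 and 189 CPM against 214, 222 and 218 CPM (-0.18, SE 0.03, adjusted p = 5.29e-06). Eed, which binds the finished mark, had 51.1, 46.0 and 45.04 CPM against 50.8, 49.2 and 54.1 CPM. The Eed libraries overlapped, and its call (-0.12, SE 0.05, adjusted p = 0.0380) was lost with DESeq2 (adjusted p = 0.104), limma-voom (0.0511) or on leaving out STAT6 replicate 2 (0.160) or 3 (0.186) or Mock replicate 3 (0.213). Ezh1, the alternative catalytic subunit, was higher by 0.14 (SE 0.06, adjusted p = 0.0450). That call did not hold with library totals alone, upper-quartile scaling, no filter on low counts, DESeq2, the replicate block or without any one of the 6 libraries, at adjusted p from 0.0505 to 0.357.

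**Figure D3:**
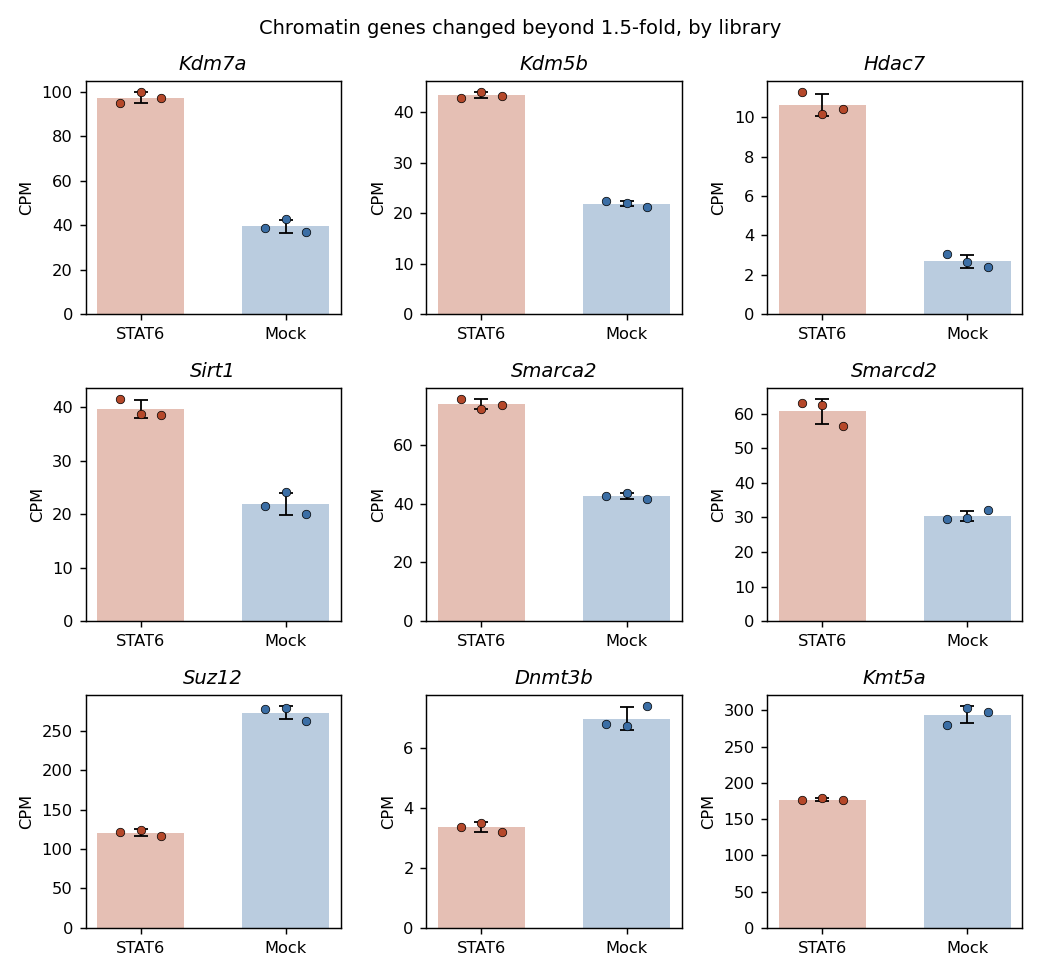
CPM in each library (points) with the group mean (bar) and SD (error bar, n = 3) for the 9 genes changed beyond 1.5-fold, STAT6-labelled libraries on the left of each panel and the Mock-labelled ones on the right; each vertical axis starts at 0. No panel has overlapping groups; Kdm7a is at 95.2 to 99.9 CPM against 36.9 to 42.9 CPM, and Suz12 at 116 to 124 CPM against 263 to 279 CPM.

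Of 14 SMARC genes 13 were tested, and 5 rose, 5 fell and 3 did not pass, near the shares over all genes (35.8% higher and 36.8% lower), with a median log2 change of 0.01. A BAF complex holds 1 of the alternative ATPases Smarca4 (BRG1) and Smarca2 (BRM). Smarca2 had 75.8, 72.4 and 73.8 CPM in the STAT6-labelled libraries and 42.8, 43.8 and 41.5 CPM in the Mock-labelled ones, a rise of 0.80 (SE 0.04, adjusted p = 4.92e-18). Smarca4 had 284, 291 and 300.02 CPM against 275, 303 and 290 CPM. The Smarca4 libraries of both groups were interleaved, and its change was 0.01 (SE 0.03, adjusted p = 0.788), or -0.0632 with library totals alone.

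The alternative BAF60 subunits differed too. Smarcd2 had 63.0, 62.5 and 56.5 CPM in the STAT6-labelled libraries, against 29.6, 29.8 and 32.0 CPM in the Mock-labelled ones. It rose by 0.99 (SE 0.05, adjusted p = 9.78e-19), just short of 2-fold. Smarcd3 rose by 0.48 (SE 0.10, adjusted p = 2.93e-05), to 10.4 ± 0.498 CPM against 7.44 ± 0.252 CPM. Smarcd1 fell by 0.40 (SE 0.04, adjusted p = 4.52e-11), to 70.2 ± 2.20 CPM against 92.7 ± 2.56 CPM. Smarcb1, the core subunit lost in rhabdoid tumours, rose by 0.29 (SE 0.04, adjusted p = 2.47e-08). The scaffold genes Smarcc1 and Smarcc2 each changed by -0.17 (adjusted p = 1.40e-04 and 1.69e-04) and Smarce1 by -0.10 (adjusted p = 0.00971, or 0.0520 without Mock replicate 3).

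Outside BAF, the ISWI ATPase Smarca5 changed by -0.20 (SE 0.04, adjusted p = 5.50e-06). The files also list Smarca5-ps, a pseudogene of it by its name, at 1.95 ± 0.235 CPM against 2.16 ± 0.283 CPM. How reads shared by such copies were counted is not given in the sources used here, so the split is uncertain. Smarcal1, an annealing helicase of stalled replication forks, rose by 0.25 (SE 0.05, adjusted p = 8.35e-05). Smarcad1 did not pass (0.04, adjusted p = 0.249).

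For 31 pairs of related genes, the ratio of the 2 counts within a library was taken. Some pairs, such as Smarca2 and Smarca4, are alternative subunits of a complex. Others, such as Kmt5b and Kmt5a, are enzymes with different tasks. Such a ratio does not depend on how libraries are scaled. It compares counts, so only its change between groups is read, not which gene of a pair is more abundant per length. In 22 pairs the groups did not overlap (exact permutation test, 2-sided, p = 0.1 each, the smallest that 3 against 3 allows; 0.141 after Benjamini-Hochberg adjustment over the 31). No pair could therefore pass, and the values are given for their size. Of all single genes tested, 74.6% did not overlap between the groups. No such share was taken for ratios of other gene pairs.

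The log2 count ratio of Hdac7 to Hdac5 moved most; its mean was -1.48 ± 0.17 in the STAT6-labelled libraries and -3.83 ± 0.24 in the Mock-labelled ones (SD, n = 3 each), a difference of 2.35. The ratio of Smarcd2 to Smarcd1 stood at -0.21 ± 0.12 against -1.61 ± 0.04, a difference of 1.39. The ratio of Smarca2 to Smarca4 stood at -1.98 ± 0.06 against -2.76 ± 0.07, a difference of 0.78. Differences between 0.6 and 0.9 were also seen for Smarcd3 over Smarcd1 (0.88), Kmt5b over Kmt5a (0.77), Hdac4 over Hdac5 (0.76), Tet2 over Tet3 (0.71), Dnmt3a over Dnmt3b (0.63) and Kdm5b over Kdm5a (0.61), and with the opposite sign for Sirt2 over Sirt1 (-0.60).

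In other pairs the ratios of both groups overlapped. The difference was 0.01 for Smarcc2 over Smarcc1 (exact permutation test, p = 0.9), 0.00 for Setd1b over Setd1a (p = 0.9), -0.02 for Kmt2b over Kmt2a (p = 0.7) and -0.04 for Hdac1 over Hdac2 (p = 0.4). Ezh1 over Ezh2 differed by 0.32 with no overlap, and Kmt2d over Kmt2c by 0.37. The pair of Smarca1 and Smarca5 rests on 7 counts of Smarca1 in all and is not read.

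**Figure D4:**
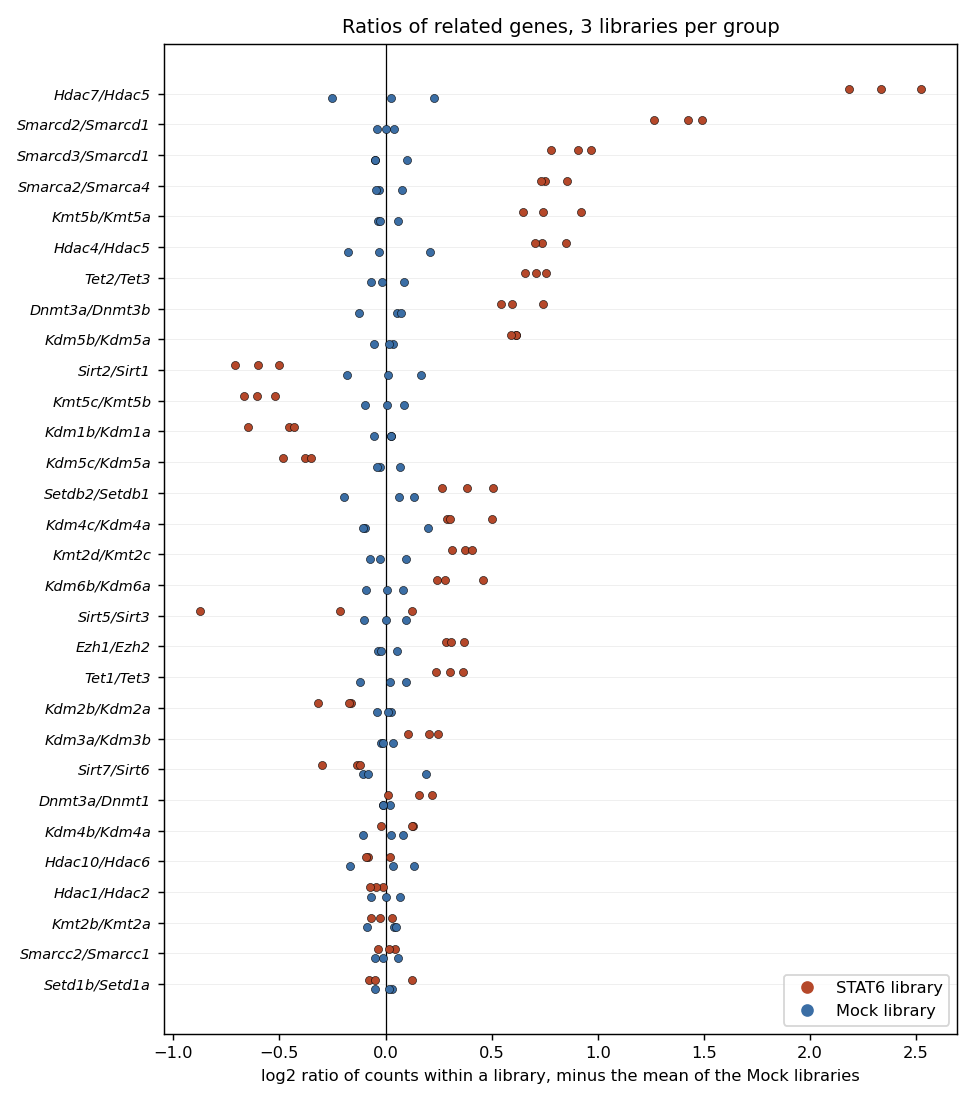
Log2 ratio of counts of related genes in each library, less the mean of the Mock-labelled libraries (horizontal axis), for the 30 pairs whose genes had at least 30 counts in every library; the STAT6-labelled libraries are the upper point row of each pair and the Mock-labelled ones the lower. Hdac7 over Hdac5 (difference 2.35) and Smarcd2 over Smarcd1 (1.39) are farthest from 0, and Setd1b over Setd1a (0.00) is at 0.

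Partners of these genes in the same complexes, and enzymes of opposite activity, were read from lists chosen with earlier results of these data known. Their counts stand beside shares over all genes tested of 36.8% lower and 35.8% higher. The non-catalytic COMPASS subunits and associated proteins had 10 lower and 1 higher of 12, with a median log2 change of -0.34, beside 5 lower of 6 catalytic genes. They included Psip1 (-0.72, adjusted p = 2.25e-19) and Men1, the menin gene that tethers Kmt2a (-0.72, adjusted p = 1.11e-13), and Paxip1 (-0.72, adjusted p = 1.88e-15) and Hcfc1 (-0.61, adjusted p = 2.98e-14). Other lysine methyltransferases had 10 lower and 1 higher of 13 and a median of -0.23. The H3K9 enzymes Suv39h1 (-0.52, adjusted p = 1.13e-12) and Suv39h2 (-0.76, adjusted p = 2.52e-10) and the H3K36 enzyme Ash1l (-0.47, adjusted p = 3.17e-12) fell. Dot1l, the H3K79 enzyme, rose (0.47, adjusted p = 3.67e-14). Histone acetyltransferases, which oppose the HDACs, had 9 lower and 3 higher of 14 and a median of -0.23, with Hat1 at -0.56 (adjusted p = 3.08e-16), Kat7 at -0.49 (adjusted p = 1.77e-13), Kat5 at -0.54 (adjusted p = 2.15e-08) and Kat14 at -0.30 (adjusted p = 1.28e-08).

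Corepressor partners of the deacetylases had 14 lower and 4 higher of 21, with a median of -0.18. Mta1 of NuRD (-0.62, adjusted p = 7.00e-17), Ncor1 (-0.40, adjusted p = 3.00e-10) and Tbl1x (-0.31, adjusted p = 3.52e-09) fell, and Mier2 rose (0.95, adjusted p = 2.34e-15). Polycomb partners had 16 lower and 10 higher of 28, with a median of -0.18. Of all genes tested, 36.8% were lower and 35.8% higher. Phf19, a PRC2 accessory protein that binds H3K36 methylation, rose to 13.4 ± 0.823 CPM against 3.53 ± 0.668 CPM (1.92, SE 0.11, adjusted p = 6.90e-17), and Aebp2, another PRC2 accessory gene, rose as well (0.42, adjusted p = 8.66e-14). The PRC1 genes Bmi1 (-0.54, adjusted p = 1.17e-16) and Cbx2 (-1.09, adjusted p = 4.09e-12) fell. Neither complex moved to one side. The PRC2 accessory genes Jarid2 (-0.35) and Mtf2 (-0.30) were lower, and the PRC1 genes Cbx6 (0.31) and Cbx7 (0.68) were higher.

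The BAF subunits without a SMARC symbol had 8 lower and 4 higher of 18 tested, with a median of -0.08. For these and the next lists, the shares over all genes were 36.8% lower and 35.8% higher. Ss18, the gene fused in synovial sarcoma, rose (0.86, SE 0.03, adjusted p = 1.02e-22). Actl6a, the actin-related subunit of dividing cells, fell (-0.75, SE 0.04, adjusted p = 8.80e-18), and so did Phf10 (-0.43, adjusted p = 2.03e-10) and Brd9 (-0.39, adjusted p = 5.20e-10). The count of 4 higher genes was 1 with library totals alone and 2 without STAT6 replicate 3. Other ATP-dependent remodellers had 12 lower and 3 higher of 16 and a median of -0.28, among them Hells (-0.55, adjusted p = 7.79e-17), Ep400 (-0.54, adjusted p = 2.21e-14), Baz1a (-0.31, adjusted p = 5.50e-09) and Baz1b (-0.25, adjusted p = 1.13e-08). Among partners of DNA methylation 3 were lower and 3 higher of 8. Uhrf1, which brings Dnmt1 to newly copied DNA, fell (-0.48, adjusted p = 1.38e-14), as did the glycosylase gene Tdg (-0.69, adjusted p = 5.58e-19), while Gadd45a (1.64, adjusted p = 3.97e-21) and Gadd45b (1.98, adjusted p = 2.08e-15) rose.

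Genes of DNA replication and division moved with the groups. All 12 listed were lower in the STAT6-labelled libraries, with a median log2 change of -0.54 and a sum of 3097 to 3133 CPM against 4676 to 4868 CPM. Ccnb1 was at -0.83 (adjusted p = 4.60e-22), Ccna2 at -0.72 (adjusted p = 2.45e-20), Mcm7 at -0.66 (adjusted p = 1.01e-18) and Mcm2 at -0.59 (adjusted p = 1.87e-18). Dnmt1 (-0.55), Kmt5a (-0.73), Uhrf1 (-0.48), Hells (-0.55) and Hat1 (-0.56) were picked here because their products are known to serve S phase or mitosis. Setd1a (-0.62), Kmt2c (-0.63) and Kdm1b (-0.66), not picked for such a role, had values of similar size. They are among the larger falls of the chromatin genes tested. Ezh2 was at -0.18, and the 12 genes ranged from -0.88 to -0.30. The part of cell division in these changes was not tested.

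**Figure D5:**
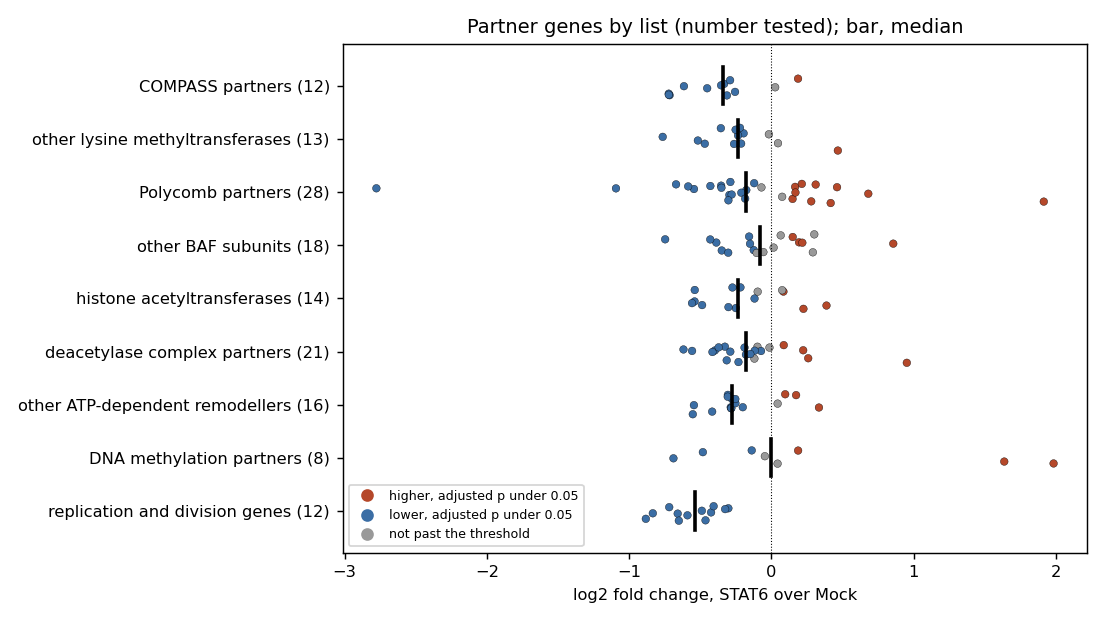
Log2 fold change (horizontal axis, STAT6-labelled libraries over the Mock-labelled ones) of each tested partner gene, 1 point a gene, with the list's median as a bar and the number tested beside its name. The 12 replication and division genes are all left of 0 with a median of -0.54, and the Polycomb partners spread from -2.78 (Epop, 0.128 CPM in the STAT6-labelled libraries and 0.914 CPM in the Mock-labelled ones) to 1.92 (Phf19).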

How the data were processed

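RNA was measured in 6 libraries, 3 per group, grouped by title. Libraries were made with a stranded kit for polyadenylated RNA, per the labels' protocols. The authors deposited whole-number counts per gene symbol, 1 file per library. FastQC, STAR, Salmon and edgeR and the build GRCh37 are named, per the submitters' processing notes. GRCh37 is a human build, which goes against the mouse gene symbols of the counts. The counting step, its strand setting and its filters were not given in the sources used here. Nothing in the labels states that replicates are separate cultures; p-values therefore reflect only how far libraries of 1 group varied, and that variation may be technical. Libraries of 1 group differed by 1.47 to 2.45 times counting noise (median chi-square), so none was a copy.

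Counts were analysed with edgeR 4.0.16 in R 4.3.3: filterByExpr (12938 genes, 99.9% of counts), TMM factors (0.968 to 1.03), and its quasi-likelihood test (glmQLFTest on a robust glmQLFit with group as the only term, 2-sided), with Benjamini-Hochberg adjustment over all genes tested and a threshold of 0.05. Fold changes are STAT6 over Mock; CPM uses TMM-adjusted totals. glmTreat tested for changes beyond 1.5-fold. Pair ratios used counts plus 0.5. The fit was also run on simulated counts in which few genes changed. In the data 72.6% of genes passed, so that run does not check the scaling used here.

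The genes, lists and pairs were chosen with earlier results of these data known. Any gene chosen by symbol could be named. Values of every library were given for those changed at least 2-fold with a mean of at least 2 CPM and for Ezh2, Eed, Suz12, Dnmt1, Smarca4, Hdac1 and Sirt1, and, chosen after their values were seen, for others whose libraries help to read the result. Of each partner list up to 4 genes with the smallest adjusted p were named. Epop, Jarid2, Mtf2, Cbx6 and Cbx7 were named after their values were seen. Alternatives were other scalings and filters, DESeq2 1.42.0, limma-voom (limma 3.58.1), the replicate number as a block, each library left out, and an adjusted p of 0.01.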

Additional observations from a re-analysis of the deposited data

How the results depend on the processing

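Of the 54 calls among the 75 tested genes, 47 (15 higher, 32 lower) kept their direction and passed under all 15 alternatives; those lost under at least 1 were Kdm4b, Kdm3a, Eed, Hdac11, Setd3, Smarce1 and Ezh1. The causes of the differences below were not tested. With library totals alone, 15 genes were higher and 41 lower, and 8 in place of 3 were lower beyond 1.5-fold. Over all 12938 genes tested, 4050 were then higher and 5475 lower, in place of 4638 and 4761, and the median moved to -0.08. The share of all genes lower beyond 1.5-fold was not taken at that setting. In the lysine methyltransferase class 0 in place of 1 gene (Setd3) was then higher. Of the BAF subunits without a SMARC symbol, 1 in place of 4 was higher. That last count was 2 at an adjusted p of 0.01 and 2 to 5 with each library left out. The higher PRC2 gene, Ezh1, gave a count of 0 with library totals, upper-quartile scaling, no filter, DESeq2, an adjusted p of 0.01 and each library left out (0 to 0). With no filter on low counts, Dnmt3l was added, so that 1 DNA methyltransferase was higher.

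Deviations from the group means correlated at 0.0519, 0.102 and 0.0310 between same-numbered libraries. For each STAT6 replicate this was its highest value, with the other pairs at -0.0829 to 0.0351. Mock replicate 3, however, correlated better with STAT6 replicate 1 (0.0351) than with STAT6 replicate 3. The same-numbered values were low and not all above 0.1, so the main fit did not pair libraries. A pairing by number is not excluded. With the replicate block, 17 genes were higher and 36 lower, and the count of higher PRC2 genes was 0. Over all genes tested, 4643 were higher and 4779 lower with that block.

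Genes that did not pass changed sign in places. With library totals alone, Kmt5b was -0.0334, Hdac2 -0.0618, Smarca4 -0.0632 and Smarcad1 -0.0304. With upper-quartile scaling, Hdac2 was -0.00375 and Smarca4 -0.00503, and with no filter Hdac2 was -0.00461 and Smarca4 -0.00579. With 1 library left out, the lowest and highest values were -0.0376 to 0.11 for Kmt5b, -0.22 to 0.11 for Setd4, -0.0657 to 0.0243 for Kdm5c, -0.14 to 0.000531 for Kdm6b, -0.00805 to 0.0196 for Hdac2, -0.0192 to 0.14 for Tet1 and -0.0293 to 0.0393 for Smarca4. Depth limits the low genes: Setd4, Hdac9, Sirt3 and Smarca5-ps stood near 1 to 3 CPM.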
